A study of Mus musculus with 14 samples.

Results

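The 9 genes described here encode transcription factors that act in the maturation of cerebellar granule neurons: the 4 members of the nuclear factor I (NFI) family, Nfia, Nfib, Nfic and Nfix; Etv1, an ETS factor; and the 4 members of the myocyte enhancer factor 2 (MEF2) family, Mef2a, Mef2b, Mef2c and Mef2d. They were listed by name, and each was found once among the 41381 Ensembl genes of the expression table by its mouse symbol. RNA sequencing was done on granule neuron progenitors (GNPs) freshly isolated from mouse cerebellum at postnatal day 7. GNPs divide in the outer layer of the young cerebellum and become granule neurons. The study asks how the loss of Chd7, an ATP-dependent chromatin remodeller mutated in CHARGE syndrome, alters gene expression in these cells. By label, 5 libraries were WT, 5 were Het and 4 were Hom. The earlier WT, Het and Hom libraries carry only the words wild type, het mutant and hom mutant for Chd7, with the strain written as C56Bl6/J. The later libraries are labelled Atoh1-Cre negative, Atoh1-Cre::Chd7 f/+ and Atoh1-Cre::Chd7 f/f, on C57BL/6. Atoh1-Cre is active in cells that give rise to excitatory cerebellar neurons such as granule cells, and the paper states that it does not target Purkinje cells. The paper also reports Chd7 protein remaining in the posterior lobe, probably from less efficient recombination. No label ties a library to an animal or a pool, so the p-values below measure the spread between libraries, which may be technical.

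NFI proteins bind a palindromic DNA element built from the core TTGGC. In granule neurons they drive late steps of maturation such as dendrite growth, migration and the expression of synaptic genes, and ETV1 acts with them on a shared set of late genes. MEF2 proteins are MADS-box factors that respond to neuronal activity: class IIa histone deacetylases hold them in check, and calcineurin and the kinases p38 and ERK5 raise their activity. In the cerebellum MEF2 factors control the shaping of dendritic claws and synapses. Much of this control acts on the proteins, and only RNA was measured.

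On GRCm38 the genes lie as follows in the GENCODE annotation. Nfib (ENSMUSG00000008575) spans chr4:82290173-82705750 on the minus strand, and Nfia (ENSMUSG00000028565) spans chr4:97772734-98118874 on the plus strand. Nfix (ENSMUSG00000001911) lies at chr8:84699876-84800344 and Nfic (ENSMUSG00000055053) at chr10:81396186-81455635, both on the minus strand. Etv1 (ENSMUSG00000004151) lies at chr12:38779380-38870484 on the plus strand. Mef2d (ENSMUSG00000001419), at chr3:88142372-88172086, and Mef2c (ENSMUSG00000005583), at chr13:83504034-83667080, are on the plus strand, and Mef2a (ENSMUSG00000030557), at chr7:67231163-67372858, is on the minus strand. Mef2b (ENSMUSG00000079033), at chr8:70139711-70167488, shares exons on the same strand with Borcs8. Exons of Nfia overlap those of E130114P18Rik on the opposite strand, which averaged 168 TPM over the 14 libraries. Reads from the shared stretch can be told apart only by strand, and the default settings used for counting do not use it. Exons of Mef2a overlap in the same way with those of Lysmd4 (mean 14.5 TPM). So do those of Nfic with Gm16104 (4.3 TPM), of Nfix with Lyl1 (3.3 TPM) and G430095P16Rik (2.7 TPM), and of Mef2d with 1700113A16Rik (2.6 TPM).

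RefSeq promoters, from 250 bases before to 50 bases after an annotated start on GRCm38.p6, were at hand for 8 of the 9 genes (14 promoters in all; Nfib had none). Those of Mef2d and Mef2a are shown as examples of the matches: Mef2a holds the 1 MEF2 consensus among the 14, and Mef2d is 1 of the 7 that hold an NFI core. In the Mef2d promoter, at chr3:88142122-88142421 on the plus strand, capitals mark 2 NFI cores, one on each strand (read GCCAA for the minus strand). In the Mef2a promoter, at chr7:67372809-67373108 on the minus strand, capitals mark 1 match to the MEF2 consensus, and this stretch matches it on both strands.
Mef2d: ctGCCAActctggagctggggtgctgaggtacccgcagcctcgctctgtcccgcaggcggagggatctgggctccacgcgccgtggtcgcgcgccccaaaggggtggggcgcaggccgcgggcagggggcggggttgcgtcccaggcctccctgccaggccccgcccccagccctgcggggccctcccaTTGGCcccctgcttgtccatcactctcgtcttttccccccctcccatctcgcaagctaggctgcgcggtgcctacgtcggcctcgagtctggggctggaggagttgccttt
Mef2a: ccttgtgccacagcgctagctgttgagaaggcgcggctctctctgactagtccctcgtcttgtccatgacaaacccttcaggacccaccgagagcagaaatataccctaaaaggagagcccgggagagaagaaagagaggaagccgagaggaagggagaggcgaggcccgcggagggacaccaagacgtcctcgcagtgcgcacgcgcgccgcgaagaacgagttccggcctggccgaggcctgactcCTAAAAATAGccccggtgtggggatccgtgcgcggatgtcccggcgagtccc
The NFI core TTGGC occurred on either strand in 46.7% of the 32851 RefSeq promoters, beside 7 of the 14 here (Mef2d, Mef2b, 3 of Nfix and 1 each of Etv1 and Mef2c), and the MEF2 consensus in 0.557%. The full palindrome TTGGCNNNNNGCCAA occurred in 0.0365% of all promoters and in none of the 14 promoters of these genes. The ETS core CGGAAG occurred in 16.9% of all promoters and, among these genes, in 1 of the 3 Mef2c promoters. These matches describe letters in the windows and say nothing about binding in GNPs.

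The libraries were sequenced in 2 batches, 8 in batch 1 (WT 1 to 3, Het 1 to 3, Hom 1 and 2) and 6 in batch 2 (WT 4 and 5, Het 4 and 5, Hom 3 and 4). The labels place Het 3 with the later libraries, in conflict with the study's methods, which were followed. Values are TPM, transcript abundances corrected for length and scaled to a fixed total per library, which hold no read number. The paper gives only an approximate read number common to all samples, so the exact depth of each library is unknown. The progenitor gene Atoh1 was at 20.8 to 50.6 TPM in every library, and the summed level of 10 GNP markers was 2767 to 3515 TPM. WT 1 to 3 and Het 3 stood apart: their 6 endothelium markers summed to 19.5 to 32.7 TPM against 106 to 431 TPM in the other 10 libraries, and their 6 Purkinje cell markers to 50.6 to 93.5 TPM against 18.8 to 33.9 TPM. Their 9 astroglial markers summed to 1177 to 1879 TPM against 336 to 893 TPM. Chd7 itself, read over all its exons and not over the deleted part alone, was higher in both batch 1 libraries labelled Hom (172 and 185 TPM) than in WT 1 to 3 (121, 152 and 132 TPM). In batch 2 it was lower in Hom 3 and 4 (150 and 126 TPM) than in WT 4 and 5 (203 and 272 TPM). The batch 1 values run opposite to the labels, but a level over all exons does not show whether the deleted part was lost. By quantitative RT-PCR, the paper found fewer Chd7 transcripts in Het and Hom GNPs than in WT. Every direction below is between libraries labelled with a genotype. In bulk RNA, fewer cells of a type and less RNA per cell cannot be told apart.

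The 9 genes ranged over 3 orders of abundance in GNPs. On the TPM scale, which is corrected for transcript length, the mean over 14 libraries fell in the order Nfix, Nfib, Nfia, Nfic, Mef2d, Mef2a, Mef2c, Etv1 and Mef2b. Neighbours in this order did not separate in all cases: the ranges of Nfix and Nfib, of Nfic and Mef2d, of Mef2d and Mef2a, and of Mef2c and Etv1 overlapped, although Mef2d exceeded Mef2a within each of the 14 libraries. The ranges of Nfib and Nfia, of Nfia and Nfic, of Mef2a and Mef2c, and of Etv1 and Mef2b did not overlap. In WT, Nfix at 429 ± 111 TPM (SD, n = 5) and Nfib at 382 ± 63.6 TPM ranked 287 and 346 among the 17325 genes tested, those reaching 1 TPM in 4 or more libraries. Nfia (149 ± 34.4 TPM) ranked 1142. The other members of the list ranked lower, from Nfic (73.7 ± 9.76 TPM) and Mef2d (67.3 ± 32.8 TPM) to Mef2c (11.0 ± 1.06 TPM) and Etv1 (10.8 ± 1.24 TPM). Mef2b was below 1 TPM in all libraries and is the only member that did not pass this filter, so tests cover 8 of the 9 genes.

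**Figure D1:**
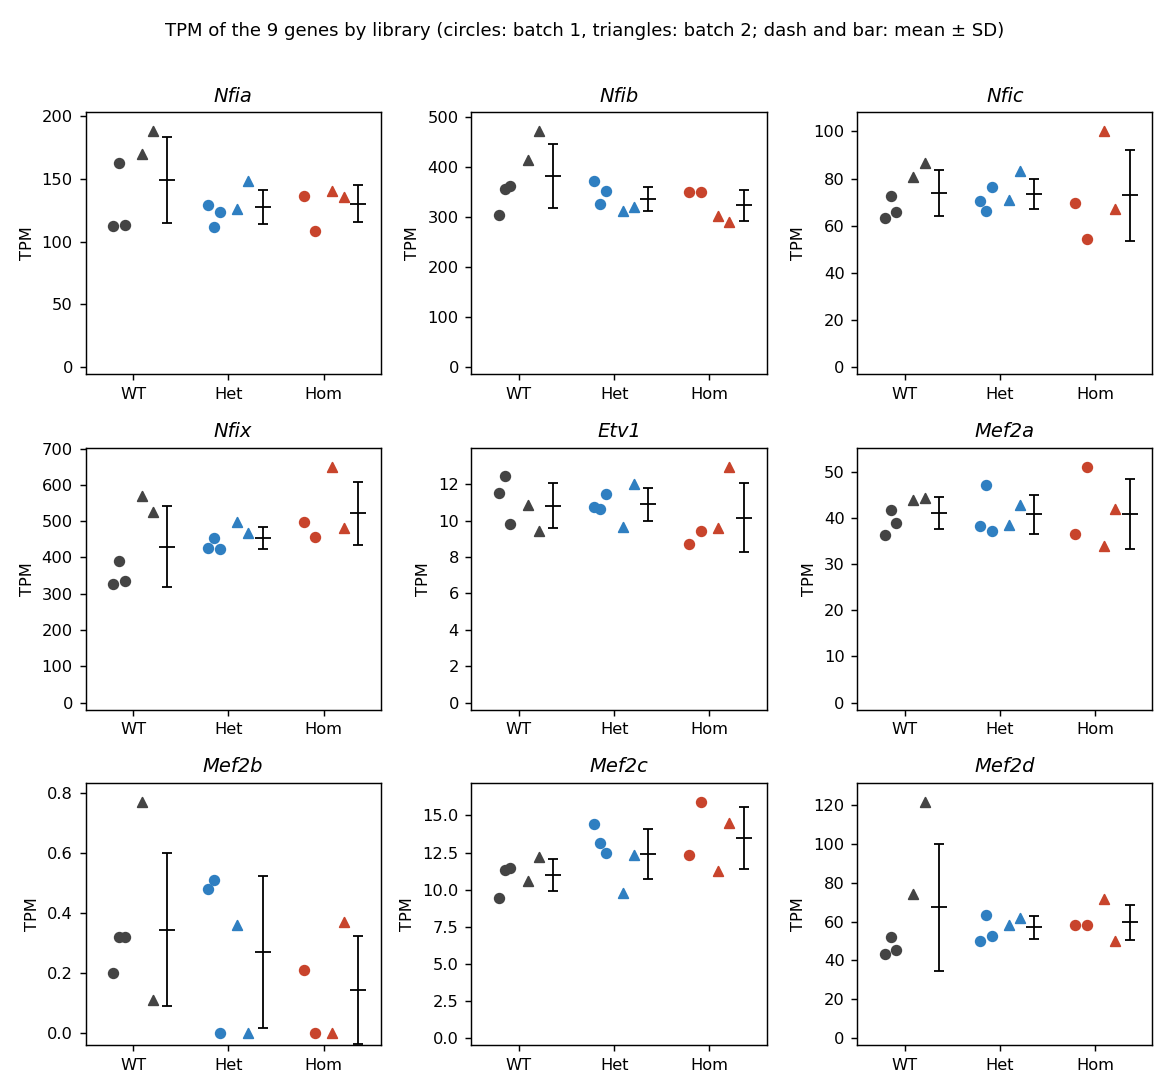
TPM of each of the 9 genes in every library (vertical axes, each with its own scale) by labelled genotype; circles are batch 1 libraries, triangles batch 2 libraries, and the dash with bar is the mean ± SD of a genotype. The ranges of WT and Hom overlap for all 9 genes. The triangles of WT lie above the circles of WT for Nfia, Nfib, Nfic, Nfix, Mef2a and Mef2d. The share of all genes with this order was not counted.

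The first comparison asks whether the transcripts of these factors differ between GNPs labelled Hom and WT. None of the 8 genes passed an adjusted p of 0.05, where 2.68% of all 17325 genes tested did (limma, genotype and batch as terms, Benjamini-Hochberg adjustment over all genes). At an unadjusted p under 0.05, 2 of the 8 differed, Nfix and Mef2c, both with higher values in Hom, beside 14.9% of all genes. For no member did all Hom values lie beyond all WT values, a pattern met by 4.87% of all genes. The exact Kruskal-Wallis test over the 3 genotypes, after removal of the batch term, gave no p under 0.01, with the lowest at 0.101 for Mef2c. The log2 changes below are on the log2(TPM + 1) scale, where 1 is added to each TPM.

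Among the NFI genes, Nfia was at 112, 162, 113, 170 and 188 TPM in WT 1 to 5. It was at 129, 112, 123, 126 and 148 TPM in Het 1 to 5 and at 136, 109, 140 and 136 TPM in Hom 1 to 4. The mutant libraries lay within the WT range or just under it, and WT spread the most. The log2 change in Hom was -0.20 ± 0.12 (SE; limma adjusted p = 0.473), with a 95% interval from -0.45 to 0.06, and in Het -0.20 ± 0.11 (adjusted p = 0.842). Nfib, the NFI gene best known from lung and brain development, was at 304, 356, 363, 415 and 472 TPM in WT 1 to 5. It was at 372, 326, 352, 313 and 320 TPM in Het 1 to 5 and at 350, 351, 302 and 291 TPM in Hom 1 to 4. All 3 ranges overlapped, with the 2 highest values in WT 4 and 5. The log2 change was -0.23 ± 0.11 in Hom (limma adjusted p = 0.361; interval -0.47 to 0.01) and -0.17 ± 0.10 in Het (adjusted p = 0.854).

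Nfic was at 63.4, 72.5, 65.9, 80.5 and 86.5 TPM in WT 1 to 5, at 70.3, 66.3, 76.6, 70.9 and 83.0 TPM in Het 1 to 5 and at 69.7, 54.3, 100 and 67.3 TPM in Hom 1 to 4. Hom held both the lowest and the highest value. The log2 change was -0.07 ± 0.12 in Hom, with an interval from -0.32 to 0.18. Nfix was at 327, 390, 335, 569 and 525 TPM in WT 1 to 5. It was at 426, 453, 423, 497 and 466 TPM in Het 1 to 5 and at 497, 456, 650 and 480 TPM in Hom 1 to 4. The Het and Hom values lay inside or above the WT range, and the 3 lowest of all were WT 1 to 3. The log2 change in Hom was 0.27 ± 0.11 (limma adjusted p = 0.27; interval 0.03 to 0.51) and in Het 0.11 ± 0.10 (adjusted p = 0.9).

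Summed over the 4 genes, NFI transcripts amounted to 1034 ± 209 TPM in WT (n = 5), 990 ± 24.7 TPM in Het (n = 5) and 1047 ± 104 TPM in Hom (n = 4). These sums differed by less than the spread between WT libraries. Within the sum, Nfix made up 41.2 ± 2.98% in WT, 45.7 ± 2.76% in Het and 49.5 ± 3.49% in Hom. Nfib made up 37.2 ± 2.79%, 34.0 ± 2.76% and 31.2 ± 4.67% in the same order. The Nfix share ran from 38.2 to 46.1% in WT and from 47.0 to 54.5% in Hom, whereas the TPM values of Nfix in WT and Hom overlapped. How often shares within other gene families separate in this way was not computed. The shares were examined after the values of the single genes were seen and were not tested.

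Etv1, which in granule neurons acts beside NFI on late genes, was at 11.5, 12.5, 9.81, 10.9 and 9.43 TPM in WT 1 to 5. It was at 10.7, 10.7, 11.5, 9.63 and 12.03 TPM in Het 1 to 5 and at 8.71, 9.40, 9.57 and 13.0 TPM in Hom 1 to 4. In Hom, 3 libraries lay at the bottom of the WT range or under it and Hom 4 above it. The log2 change was -0.09 ± 0.12 in Hom (limma adjusted p = 0.795; interval -0.36 to 0.17) and 0.01 ± 0.12 in Het (adjusted p = 0.991). Of the other members of its PEA3 subfamily, Etv4 averaged 11.0 ± 3.19 TPM in WT, 7.61 ± 2.02 TPM in Het and 6.57 ± 1.77 TPM in Hom (log2 change in Hom -0.65 ± 0.23, limma adjusted p = 0.198), and Etv5 differed by -0.05 ± 0.17 in Hom.

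Among the MEF2 genes, Mef2a was at 36.4, 41.8, 39.0, 44.1 and 44.4 TPM in WT 1 to 5. It was at 38.4, 47.2, 37.2, 38.5 and 43.0 TPM in Het 1 to 5 and at 36.7, 51.2, 34.1 and 42.1 TPM in Hom 1 to 4. The ranges overlapped throughout, and the log2 changes were -0.02 ± 0.12 in Hom, with an interval from -0.27 to 0.23, and -0.01 ± 0.11 in Het. Mef2c, a gene also expressed outside the granule lineage, was at 9.40, 11.3, 11.5, 10.6 and 12.2 TPM in WT 1 to 5. It was at 14.4, 13.1, 12.5, 9.79 and 12.3 TPM in Het 1 to 5 and at 12.3, 15.9, 11.3 and 14.5 TPM in Hom 1 to 4. Of the 4 Hom libraries, 3 lay above all WT libraries. The log2 change was 0.28 ± 0.12 in Hom (limma adjusted p = 0.309; interval 0.01 to 0.54) and 0.16 ± 0.12 in Het (adjusted p = 0.879).

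Mef2d was at 43.2, 52.0, 45.5, 74.2 and 122 TPM in WT 1 to 5. It was at 49.8, 63.3, 52.4, 58.4 and 61.8 TPM in Het 1 to 5 and at 58.5, 58.2, 71.9 and 50.2 TPM in Hom 1 to 4. WT held the 2 lowest of all values and the 2 highest. The log2 change was -0.11 ± 0.20 in Hom (limma adjusted p = 0.862; interval -0.55 to 0.33), and it turned to 0.11 without WT 5. Mef2b was at 0.20, 0.32, 0.32, 0.77 and 0.11 TPM in WT 1 to 5. It was at 0.48, 0.51, 0, 0.36 and 0 TPM in Het 1 to 5 and at 0.21, 0, 0 and 0.37 TPM in Hom 1 to 4. Libraries listed at 0 occur in both mutant groups, and Mef2b shares exons with Borcs8 (24.6 to 37.6 TPM). As Mef2b did not pass the filter, no change is given for it. The 4 MEF2 genes summed to 120 ± 36.2 TPM in WT, 111 ± 9.61 TPM in Het and 114 ± 8.68 TPM in Hom, of which Mef2d made up 54.1 ± 8.82%, 51.6 ± 2.31% and 52.2 ± 7.06%.

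**Figure D2:**
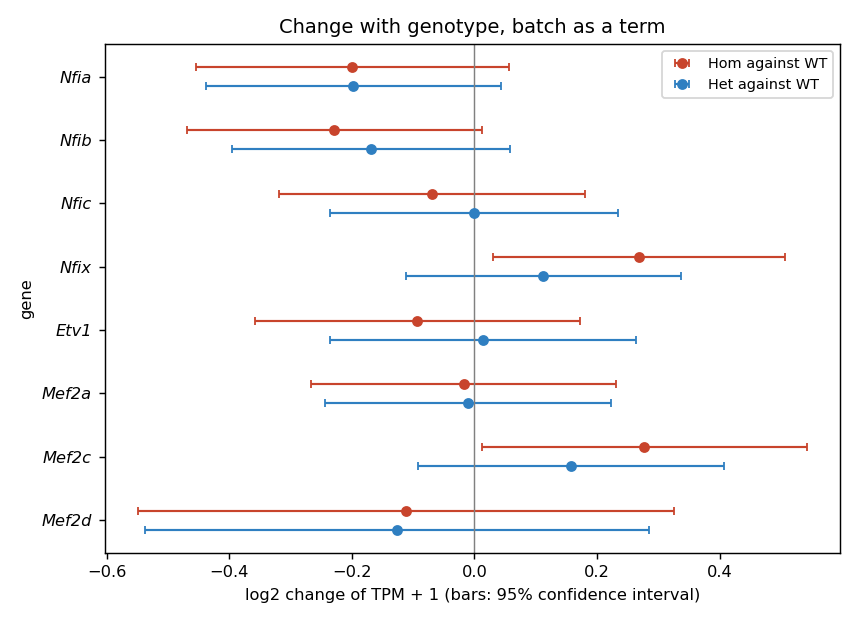
Log2 change of TPM + 1 (horizontal axis) of the 8 genes tested, in Hom (red) and Het (blue) against WT, with batch as a term; points are estimates and bars 95% confidence intervals. Only the Hom intervals of Nfix (0.03 to 0.51) and Mef2c (0.01 to 0.54) leave out 0, and neither gene passed after adjustment.

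In Het against WT, none of the 8 genes passed, beside 0.00577% (1 gene) of all tested, and none had an unadjusted p under 0.05, beside 6.08% of all genes. Nor did all Het values lie beyond all WT values for any, beside 1.04% of all genes. In Hom against Het, again none passed, beside 0.427% of all genes at an adjusted p under 0.05, and none had an unadjusted p under 0.05, beside 6.18%. The 2 comparisons with WT share the WT libraries.

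The batches gave a second comparison. Of the 8 genes, Nfix passed, with a log2 difference of 0.35 ± 0.09 between batch 2 and batch 1 (limma adjusted p = 0.0226), beside 13.5% of all genes. At an unadjusted p under 0.05, 4 of the 8 had higher values in batch 2, beside 28.9% of all genes in either direction: Nfix, Nfia (0.28 ± 0.10, limma adjusted p = 0.0656), Nfic (0.27 ± 0.09, adjusted p = 0.0736) and Mef2d (0.41 ± 0.16, adjusted p = 0.113). The difference of Nfix lost its call with Het 3 placed in batch 2 (adjusted p = 0.0775), without WT 4 (0.0640), without WT 5 (0.0524) or without Hom 3 (0.0516). It was also lost in 2 fits chosen after the data were seen, with endothelium and Purkinje cell marker levels as covariates (0.11 ± 0.13, limma adjusted p = 0.699) and without WT 1 to 3 and Het 3 (0.18 ± 0.09, adjusted p = 0.298).

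The genotype values were therefore set side by side within each batch. In batch 1, 2 of the 8 genes, Nfix and Mef2c, had all 5 Het and Hom libraries above all 3 WT libraries, beside 5.49% of all genes, and none had them all below, beside 4.23%. Nfix was at 327 to 390 TPM in the 3 WT libraries and at 423 to 497 TPM in the 5 mutant libraries. Mef2c was at 9.40 to 11.5 TPM in WT and at 12.3 to 15.9 TPM in the mutants. Fitted on batch 1 alone, the log2 change in Hom was 0.45 ± 0.09 for Nfix (limma adjusted p = 0.0775) and 0.36 ± 0.15 for Mef2c (adjusted p = 0.338). These are the libraries whose endothelium and Purkinje cell markers differ as given above. Het 3, whose endothelium markers were the lowest of all at 19.5 TPM, had Nfix at 423 TPM and Mef2c at 12.5 TPM. When the levels of both marker lists were added to the fit, a choice made after the data were seen, the Hom changes were 0.16 ± 0.12 for Nfix and 0.14 ± 0.14 for Mef2c. Without WT 1 to 3 and Het 3 they were 0.01 ± 0.12 and 0.12 ± 0.18. In the marker fit other Hom changes were lower than without the markers: Mef2d (-0.40 ± 0.13, limma adjusted p = 0.132), Nfib (-0.34 ± 0.11, adjusted p = 0.144) and Mef2a (-0.23 ± 0.10, adjusted p = 0.279). Nfia was at -0.21, Nfic at -0.01 and Etv1 at -0.03. In Het, Mef2d was at -0.56 ± 0.12 (limma adjusted p = 0.204) and Nfib at -0.34 ± 0.11 (adjusted p = 0.374). No member passed. In batch 1 the marker levels and the WT label cannot be told apart, except in Het 3.

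**Figure D3:**
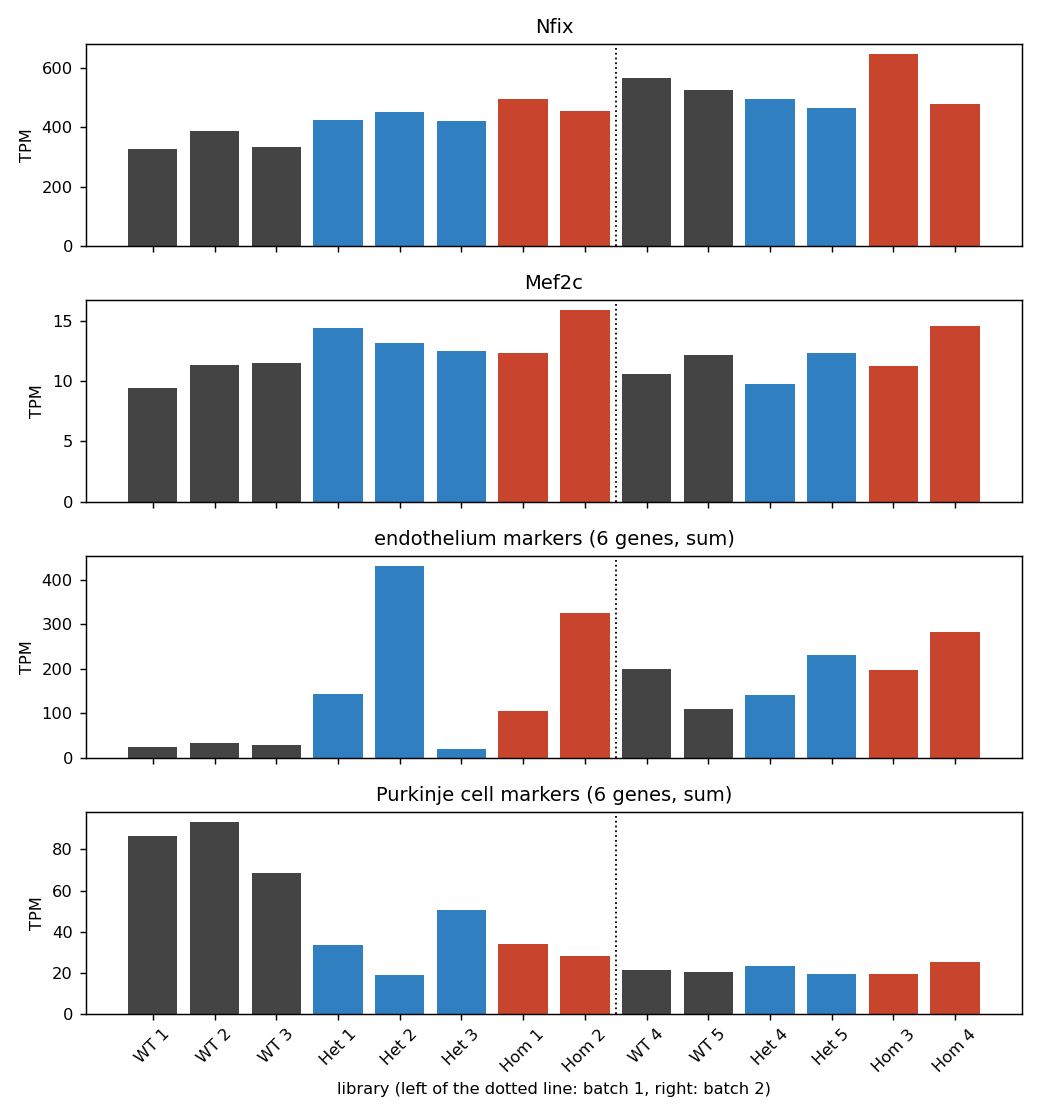
TPM of Nfix and Mef2c and the summed TPM of 6 endothelium and 6 Purkinje cell markers (vertical axes) in each library; grey bars are WT, blue Het and red Hom, and the dotted line divides batch 1 from batch 2. In batch 1 all mutant libraries exceed WT 1 to 3 for Nfix and Mef2c, and WT 1 to 3 and Het 3 hold the lowest endothelium and highest Purkinje cell sums.

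In batch 2 the order differed. Of the 8 genes, 4 had all 4 mutant libraries below both WT libraries, beside 13.4% of all genes: Nfia, Nfib, Mef2a and Mef2d. None had them all above, beside 11.6%. Nfib was at 415 and 472 TPM in WT 4 and 5 and at 291 to 320 TPM in the mutants, and its log2 change on batch 2 alone was -0.58 ± 0.09 in Hom (limma adjusted p = 0.118) and -0.48 ± 0.09 in Het (adjusted p = 0.705). Nfia was at 170 and 188 TPM in WT and at 126 to 148 TPM in the mutants (-0.37 ± 0.11 in Hom, limma adjusted p = 0.24). Mef2d was at 74.2 and 122 TPM in WT and at 50.2 to 71.9 TPM in the mutants (-0.65 ± 0.26 in Hom, limma adjusted p = 0.31). WT 5, which holds the highest Mef2d and Nfib values, also held the highest levels of the activity-induced genes Nr4a1 (77.3 TPM, next highest 26.5 TPM) and Jun (460 TPM, next highest 206 TPM), both named here after their values were seen. The part of that library's state in the result was not tested.

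**Figure D4:**
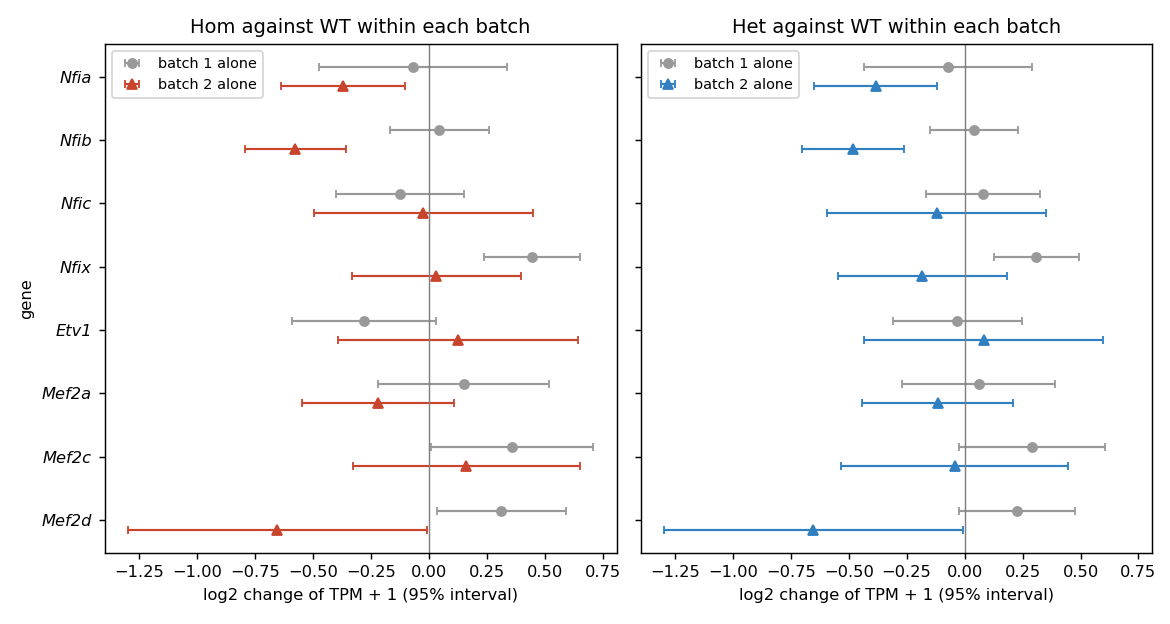
Log2 change of TPM + 1 (horizontal axis) of the 8 genes in Hom (left) and Het (right) against WT, fitted on batch 1 alone (grey circles) and batch 2 alone (coloured triangles); bars are 95% confidence intervals. Nfib and Mef2d lie at or above 0 in batch 1 and below 0 in batch 2, and the Nfix intervals leave out 0 in batch 1 only.

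An interaction term compared the Hom change of batch 2 with that of batch 1. None of the 8 genes passed, beside 0.0115% (2 genes) of all genes, and 3 of the 8 had an unadjusted p under 0.05, beside 17.2% of all genes. The Hom change in batch 2 minus that in batch 1 was -0.62 ± 0.13 for Nfib (limma adjusted p = 0.127), -0.97 ± 0.29 for Mef2d (adjusted p = 0.157) and -0.41 ± 0.17 for Nfix (adjusted p = 0.262). For Het, which shares the WT libraries, the values were -0.52 ± 0.12, -0.88 ± 0.28 and -0.49 ± 0.17, with none passing beside 0.00577% of all genes, and these 3 under an unadjusted 0.05 beside 9.3%. Mef2d was the 1 member with both Hom libraries above all WT libraries in batch 1 and below them in batch 2, beside 3.91% of all genes. Without WT 1 to 3 and Het 3, a choice made after the data were seen, Nfib passed in Hom against WT with a log2 change of -0.55 ± 0.08 (limma adjusted p = 0.0208), beside 0.97% of all genes. This fit takes its WT from WT 4 and 5, both of batch 2.

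The 8 genes tested did not vary together as 1 block. After the batch term was removed, Pearson's r over the 14 libraries was highest between Nfib and Mef2d (0.75) and between Nfia and Nfib (0.70), and lowest between Nfic and Mef2a (-0.52). Nfix was nearest to Mef2d (0.50) and Etv1 ran against it (-0.51). These are descriptions over libraries that share genotype and cell makeup. Among 12300 genes with a mean of at least 5 TPM, the gene most like Mef2d was the targeted gene Chd7 (r = 0.93), followed by Dhx38 (0.93). WT 4 and 5 held the highest TPM of both Mef2d (74.2 and 122) and Chd7 (203 and 272). The value of r without these libraries was not computed. Nfib was most like Gmeb2 (0.94) and Cnksr2 (0.94), Nfia most like Trip11 (0.91) and Plekhm3 (0.87), and Nfic most like Kdm6b (0.95) and Ppp1r37 (0.93). Nfix was most like Vav2 (0.93) and Zmiz1 (0.93), Etv1 most like Clec3b (0.88) and Pygb (0.86), Mef2a most like Slk (0.95) and Gm28941 (0.95), and Mef2c most like Lclat1 (0.94) and Dhx9 (0.93). No member was among the 2 genes most like another.

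The genes around these factors were read in the same fit. Of 13 regulators of MEF2 activity, 1 was lower in Hom and none higher, beside 2.68% of all genes in either direction. Ppp3ca, a catalytic subunit of calcineurin, which activates MEF2, was at 164 ± 18.1 TPM in WT, 155 ± 12.5 TPM in Het and 120 ± 15.1 TPM in Hom (log2 change -0.45 ± 0.10, limma adjusted p = 0.0262). The other catalytic subunit in the list, Ppp3cb (0.07 ± 0.07, limma adjusted p = 0.693), and the regulatory subunit Ppp3r1 (0.06 ± 0.06, adjusted p = 0.725) did not pass. Nor did the rest of the list, which includes the repressing deacetylases Hdac4, Hdac5, Hdac7 and Hdac9, and the median log2 change of the 13 was 0.04 beside 0.02 over all genes. Of 10 MEF2 target genes in neurons 9 were tested and none passed, beside the same 2.68%, with a median of -0.21, and the most abundant of them, Jun, had a change of -0.82 ± 0.30 (limma adjusted p = 0.217). Of the 7 genes in a list of NFI and ETV1 targets in granule neurons, 6 met the filter. Grin2c, a subunit of the NMDA receptor of mature granule neurons, met it through the Hom libraries, so its values are a description: 0.32 to 0.74 TPM in WT, 0.35 to 2.21 TPM in Het and 2.21 to 4.89 TPM in Hom. None of the other 5 passed. Gabra6, the receptor subunit of mature granule neurons, was at 0.87 to 1.03 TPM in WT 1 to 3, at 0.44 TPM in Het 3 and at 0.20 TPM or less in the other libraries, so it did not pass the filter.

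Granule cell stage markers were read in the same way, beside 2.68% of all genes called in Hom. Of 8 early granule neuron markers, 3 were lower in Hom: Stmn2 (log2 change -0.55 ± 0.05, limma adjusted p = 1.11e-04), Neurod1 (-0.55 ± 0.10, adjusted p = 0.0116) and Tubb3 (-0.38 ± 0.07, adjusted p = 0.0111), with a median over the 8 of -0.42. Of 8 late markers, 2 were lower, Kcnd2 (-1.57 ± 0.20) and Slc17a7 (-0.71 ± 0.17), while Calb2 (0.49 ± 0.41), Slc17a6 (0.27 ± 0.17) and Chn2 (0.25 ± 0.22) had values above 0 and did not pass. Of 10 progenitor markers 1 was higher, the cyclin gene Ccnd1 (0.80 ± 0.08), with a median over the 10 of 0.14. Pax6 (-0.28 ± 0.09, limma adjusted p = 0.121), Zic1 (-0.15 ± 0.08) and Top2a (-0.02 ± 0.16) had values below 0 and did not pass. Neither the difference between these genes and the 8 factors nor its source was tested. None of these list genes passed in Het, beside 0.00577% of all genes.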

How the data were processed

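The authors deposited 1 table of gene-level TPM values for 14 libraries, estimated with RSEM 1.2.15 and Bowtie 1.0.0 on mm10 at default settings, from single-end reads of total RNA libraries. No batch correction is evident in the values: all columns sum to the same total apart from rounding. Control columns were matched to WT libraries by number. Of 41381 genes, 40254 were given a symbol. Values were analysed as log2(TPM + 1), which understates changes of low genes, in the 17325 genes reaching 1 TPM in 4 or more libraries. The tests used limma 3.58.1 (R 4.3.3) with linear models (genotype and batch as terms, all libraries, intensity trend), with two-sided p-values adjusted by the Benjamini-Hochberg method over all genes tested and a threshold of 0.05. The study used ComBat, which was not run here; an exact Kruskal-Wallis test (252252 arrangements) used values with the batch term removed by limma. The script was tested on simulated data. The members and gene lists were chosen with earlier results of these data known. All 9 members are named; from the other lists, called genes and otherwise up to 4 of the most abundant, and exceptions are marked. Alternatives changed the pseudocount, filter, scaling, batch assignment, batch term, samples, weights and replicate block, or left out 1 library. Positions are from GENCODE on GRCm38 and promoters from RefSeq on GRCm38.p6.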

Additional observations from a re-analysis of the deposited data

Results flagged for a closer look

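Nfia in the Hom libraries had its lowest value, 109 TPM in Hom 2, far from the other 3 (136, 136 and 140 TPM). Chance marks about 1 in 20 such groups, and 27 groups of 4 or 5 libraries were examined. Mef2d was higher in both Hom libraries than in all WT libraries of batch 1 and lower in both than in the WT libraries of batch 2. The Hom change in batch 2 minus that in batch 1 was -0.97 on the log2 scale (limma interaction, adjusted p = 0.157), which did not pass, and it ran from -1.32 to -0.61 when 1 library was left out.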

How the results depend on the processing

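No member passed in Het against WT, in Hom against Het or in the interaction of Hom and batch under any alternative run, and in Hom against WT only Nfib did, under 1 of them, without WT 1 to 3 and Het 3 (1 gene; -0.55). In batch 2 against batch 1 the count of 1 rose to 2 with a mean TPM of at least 5 (Nfia, 0.28), fell to 0 with Het 3 in batch 2, with the marker levels as covariates, and without WT 1 to 3 and Het 3, and ran from 0 to 2 with 1 library left out (0 without WT 4, WT 5 or Hom 3; 2 without WT 2, Hom 1 or Hom 4). Under the 3 settings that gave 0, in the order named, Nfix differed by 0.32, 0.11 and 0.18. The causes were not tested.

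The same replicate numbers do not pair the libraries: over 13 pairs of libraries with the same number the correlation of deviations ran from -0.23 to 0.26, and 3 pairs exceeded 0.1. With the replicate block no member passed in the genotype comparisons, and in batch 2 against batch 1 the count was 0 (Nfix 0.66).

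Changes that turned sign were mostly of genes near 0. In Hom against WT they were Mef2a (0.15), Mef2d (0.31) and Nfib (0.045) on batch 1 alone, Etv1 on batch 2 alone (0.13), Mef2d with array weights (0.0041), Mef2a with the replicate block (0.063) and Etv1 without WT 1 to 3 and Het 3 (0.061). In Het against WT they were Etv1 (-0.032), Mef2a (0.060), Mef2d (0.23), Nfib (0.040) and Nfic (0.079) on batch 1 alone, Mef2c (-0.042) and Nfix (-0.18) on batch 2 alone, Etv1 (-0.0077) and Nfic (0.023) with array weights, and Nfix with the marker covariates (-0.045) and without WT 1 to 3 and Het 3 (-0.16). In Hom against Het, Nfia turned to 0.054 with Het 3 in batch 2, 0.019 with array weights, 0.0049 on batch 1 alone, 0.014 on batch 2 alone, 0.040 with the marker covariates, 0.027 with no batch term, 0.0092 with only the 2 genotypes, 0.024 with quantile normalization, 0.019 with the replicate block and 0.016 without WT 1 to 3 and Het 3. Also there, Mef2a turned to 0.090 on batch 1 alone, 0.0027 with only the 2 genotypes and 0.073 with the block. Nfib turned to 0.0050 on batch 1 alone and 0.016 with the block, Etv1 to 0.046 and Nfic to 0.096 on batch 2 alone, Nfic to 0.033 with the covariates, and Mef2d to -0.00071 on batch 2 alone and -0.0061 with median-ratio scaling. In batch 2 against batch 1, Mef2a turned to -0.031 with Het 3 in batch 2, -0.14 with the covariates, -0.0079 with median-ratio scaling, -0.018 with quantile normalization, -0.22 with the block and -0.13 without WT 1 to 3 and Het 3. Nfib turned to -0.052 with array weights, -0.26 with the covariates, -0.0031 with median-ratio scaling, -0.17 with the block and -0.19 without WT 1 to 3 and Het 3. Mef2d turned to -0.26 with the covariates and Etv1 to -0.045 with the block.

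With 1 library left out, the ranges of the changes that turned sign were, in Hom against WT, Nfic -0.19 to 0.027, Mef2a -0.15 to 0.069 and Mef2d -0.20 to 0.11. In Het against WT they were Nfic -0.046 to 0.059, Etv1 -0.041 to 0.068, Mef2a -0.067 to 0.022 and Mef2d -0.22 to 0.079. In Hom against Het they were Nfia -0.085 to 0.041, Nfic -0.19 to 0.028, Mef2a -0.14 to 0.079 and Mef2d -0.059 to 0.17. In batch 2 against batch 1 they were Nfib -0.067 to 0.045, Etv1 -0.045 to 0.073 and Mef2a -0.023 to 0.080. The exact depth per library is unknown, so the precision of low genes such as Mef2b cannot be given.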
